A study of Mus musculus with 12 samples.

Results

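In all, 32 named genes of enteric neurons and glia were followed through RNA sequencing of whole mouse colon. They were chosen by name, as genes of pan-neuronal identity (10), the synaptic vesicle (3), transmitters and neuropeptides (8), neural fate and growth factor reception (7) and glia (4). All 32 were among the 35841 genes of the table, and 30 passed the filter on low counts that left 22279 genes for testing. The enteric nervous system is the network of neurons and glia that lies in the myenteric plexus, between the muscle layers of the gut wall, and in the submucosal plexus nearer the epithelium. Its neurons drive and inhibit the smooth muscle and set secretion and blood flow, and its glia surround them and respond to injury and inflammation. Progenitors from the neural crest colonise the gut under the control of the receptors RET and EDNRB, and the transmitters and neuropeptides they later make, such as vasoactive intestinal peptide, enkephalin and substance P, mark classes of motor neurons, interneurons and sensory neurons.

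The colon came from wild-type mice in 4 groups of 3 libraries. The DSS+ImP group received DSS (dextran sulfate sodium, which injures the colonic epithelium and causes colitis) together with ImP, the DSS group received DSS, the ImP group received ImP, and no treatment was listed for the Ctrl group. The series title names Angelica dahurica polysaccharides, ImP is not spelled out, and a period of 7 days is given for colitis with or without ImP. Libraries are called by group and by the replicate number in their titles, which is 2, 3 and 4 in DSS+ImP, 2, 3 and 5 in DSS, 1, 3 and 4 in ImP, and 1, 4 and 5 in Ctrl. Strain, age and sex were not used here. The labels do not say that each library is a separate animal, so the spread that p-values rest on is that of these samples and may be technical. In whole tissue, fewer cells of a type and less RNA per cell cannot be told apart.

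Total estimated counts per library lay between 55419380 and 67406087. Traces of RNA from other organs cut across the groups and touch all that follows. Liver genes summed to 107 to 128 CPM (counts per 1000000, with library sizes scaled by TMM, the trimmed mean of M-values) in DSS 2 and the 3 Ctrl libraries, and to 4.13 to 8.69 CPM in the other 8. The 7 pancreatic enzyme genes that were at 0 in some library summed to 10.7 to 13.0 CPM in all of ImP as well as DSS 3 and DSS 5, to 3.4 CPM in Ctrl 4, and to at most 0.143 CPM in the other 6. The DSS+ImP libraries were thus low in both traces and no other group was, so that in the DSS+ImP comparisons treatment and this trait cannot be told apart. Elavl3, Elavl4, Ret and Uchl1, which mark enteric neurons, and Sox10 and S100b, which mark enteric glia, had counts in all 12 libraries.

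Vip, Gfap and Ednrb were higher in DSS+ImP colon than in colon given either agent alone, and Ret was higher than in colon given ImP alone. No member was lower in any comparison, and none passed the test in DSS against Ctrl or in ImP against Ctrl. Because Vip, Gfap and Ednrb carried the calls, the 250 bases before their annotated starts (RefSeq, GRCm38.p6) are given here from 5′ to 3′ on the strand of the gene. Capitals mark matches to TGACG, the core of the cyclic AMP response element, and to TATAAA, the TATA box. The Vip window is chr10:5638968-5639217 on the plus strand, that of Gfap is chr11:102897201-102897450 on the minus strand and that of Ednrb is chr14:103843702-103843951 on the minus strand.
Vip: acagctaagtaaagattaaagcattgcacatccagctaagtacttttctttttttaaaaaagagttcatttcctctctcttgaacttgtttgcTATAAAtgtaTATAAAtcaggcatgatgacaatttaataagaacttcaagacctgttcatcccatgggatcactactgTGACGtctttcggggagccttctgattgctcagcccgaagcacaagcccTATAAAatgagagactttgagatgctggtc
Gfap: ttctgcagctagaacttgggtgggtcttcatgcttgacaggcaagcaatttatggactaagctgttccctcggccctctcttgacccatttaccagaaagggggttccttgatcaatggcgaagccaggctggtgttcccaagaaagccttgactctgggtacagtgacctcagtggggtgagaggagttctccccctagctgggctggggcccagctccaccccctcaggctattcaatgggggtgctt
Ednrb: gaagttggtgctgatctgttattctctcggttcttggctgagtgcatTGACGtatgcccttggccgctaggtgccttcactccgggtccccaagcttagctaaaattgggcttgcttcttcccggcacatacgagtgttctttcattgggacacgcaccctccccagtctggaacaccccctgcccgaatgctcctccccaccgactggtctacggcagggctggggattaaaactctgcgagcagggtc
In Vip, TGACG stood at bases -79 to -75 and TATAAA began at -157, -147 and -30, counted back from the start. In Ednrb, TGACG stood at -203 to -199, and neither motif was found in the Gfap window. Both strands were searched, along with TTCNNNGAA, the palindrome of STAT factors, and no printed matches overlapped. The promoter table covered 23 of the 32 members, of which 8 held TGACG, 3 held TATAAA and 0 held TTCNNNGAA. Of all 32851 promoters of that length, 17.8% held TGACG, 12.4% held TATAAA and 7.02% held TTCNNNGAA. A member was counted if any of its promoters held the motif, whereas these shares are per promoter and not per gene. A match describes these letters only.

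**Figure D1:**
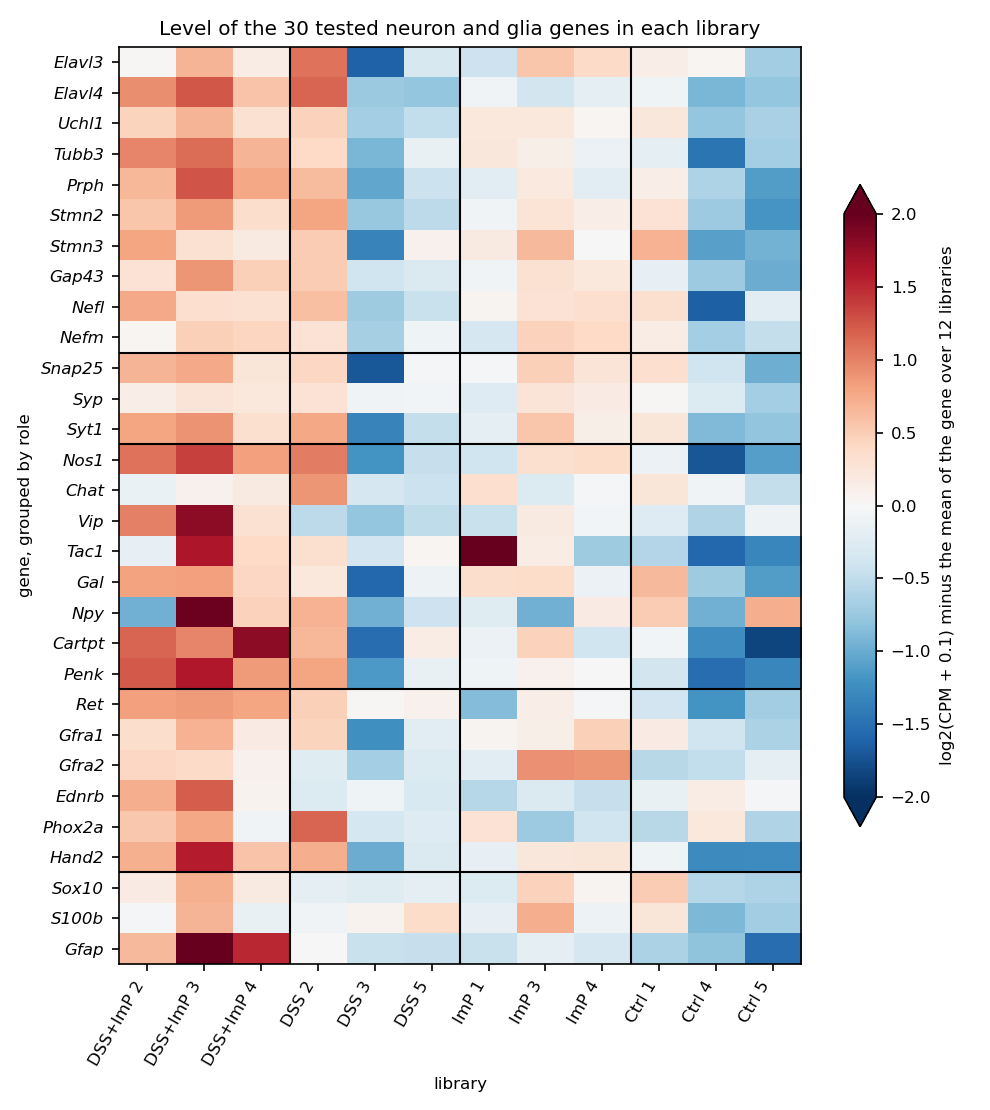
Level of each of the 30 tested neuron and glia genes in each of the 12 libraries, as log2 CPM relative to the gene's own mean over the libraries (colour), with genes down the page in role groups and libraries across in the order DSS+ImP, DSS, ImP and Ctrl. The DSS+ImP columns are high for most genes, DSS 2 is high and DSS 3 low within the DSS group, and Ctrl 1 is high within the Ctrl group.

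The first feature of these genes, seen in the map of levels by gene and library, was that they varied together from library to library within a group. Of the 30 tested members, 26 were highest among the DSS libraries in DSS 2 and 25 were lowest in DSS 3. In Ctrl, 25 were highest in Ctrl 1, and in DSS+ImP, 25 were highest in DSS+ImP 3. Across all tested genes, by contrast, any 1 library was the highest of its group for between 30.3% and 37.4% of genes. The median member was at 1.53 times its group mean in DSS 2, 0.578 times in DSS 3, 1.42 times in Ctrl 1 and 1.20 times in DSS+ImP 3. The ImP libraries lay closer together, at 0.883 to 1.11 times.

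Summed over the 10 pan-neuronal genes, levels were 71.4, 87.6 and 65.3 CPM in DSS+ImP libraries 2, 3 and 4, and 72.1, 26.0 and 35.7 CPM in DSS libraries 2, 3 and 5. They were 46.4, 55.1 and 48.2 CPM in ImP libraries 1, 3 and 4, and 51.6, 25.8 and 26.2 CPM in Ctrl libraries 1, 4 and 5. DSS 2 thus stood among the DSS+ImP libraries, and Ctrl 1 among the ImP libraries. Since enteric neurons lie in and beside the muscle, the sum of 14 smooth muscle genes was set beside these values. It was 3294 to 4242 CPM in DSS+ImP, 2556 to 3860 CPM in DSS, 3290 to 5956 CPM in ImP and 2291 to 3319 CPM in Ctrl. In DSS, ImP and Ctrl, the libraries had the same order for pan-neuronal and for smooth muscle genes. DSS 2, ImP 3 and Ctrl 1 were the highest of their groups for both, and DSS 3, ImP 1 and Ctrl 4 the lowest. In DSS+ImP the order differed, since DSS+ImP 3 had the most pan-neuronal and the least smooth muscle RNA. Per 1000 CPM of smooth muscle genes, pan-neuronal genes had 16.8, 26.6 and 17.5 CPM in DSS+ImP, 18.7, 10.2 and 9.70 CPM in DSS, 14.1, 9.25 and 11.1 CPM in ImP, and 15.6, 11.3 and 9.63 CPM in Ctrl, so that DSS 2 again lay within the DSS+ImP range. None of the 14 smooth muscle genes passed the edgeR test in any of the 4 comparisons of groups. At an unadjusted p under 0.05, 1 did in DSS+ImP against DSS, 3 in DSS+ImP against ImP, 0 in DSS against Ctrl and 13 in ImP against Ctrl. Of all genes 24.1%, 23.0%, 15.3% and 15.2% did, in that order. The median log2 change of the 14 was 0.223, -0.249, 0.352 and 0.702 in the same order. That of the members was 0.737, 0.486, 0.313 and 0.520. The 7 epithelial markers (Epcam, Cdh1, Krt8, Krt18, Krt19, Krt20 and Vil1) all had counts in every library. They summed to 8082 to 10611 CPM in DSS+ImP, 10907 to 13009 CPM in DSS, 11577 to 14183 CPM in ImP and 9558 to 12517 CPM in Ctrl. All 7 had log2 changes under 0 in both DSS+ImP comparisons, the other way from most members. In the remaining comparisons their medians were above 0, as for the members, at 0.142 in DSS against Ctrl and 0.215 in ImP against Ctrl. Vil1 passed as lower against DSS, and Vil1, Epcam and Krt20 passed as lower against ImP. With any 1 library left out, Vil1 kept its call against ImP, while its call against DSS was lost without DSS+ImP 2, DSS+ImP 3 or any DSS library. Those of Epcam and Krt20 were lost without DSS+ImP 2, DSS+ImP 3, Ctrl 5 or any DSS or ImP library, and that of Epcam also without Ctrl 4. The part of muscle and epithelial content in the results below was not tested.

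**Figure D2:**
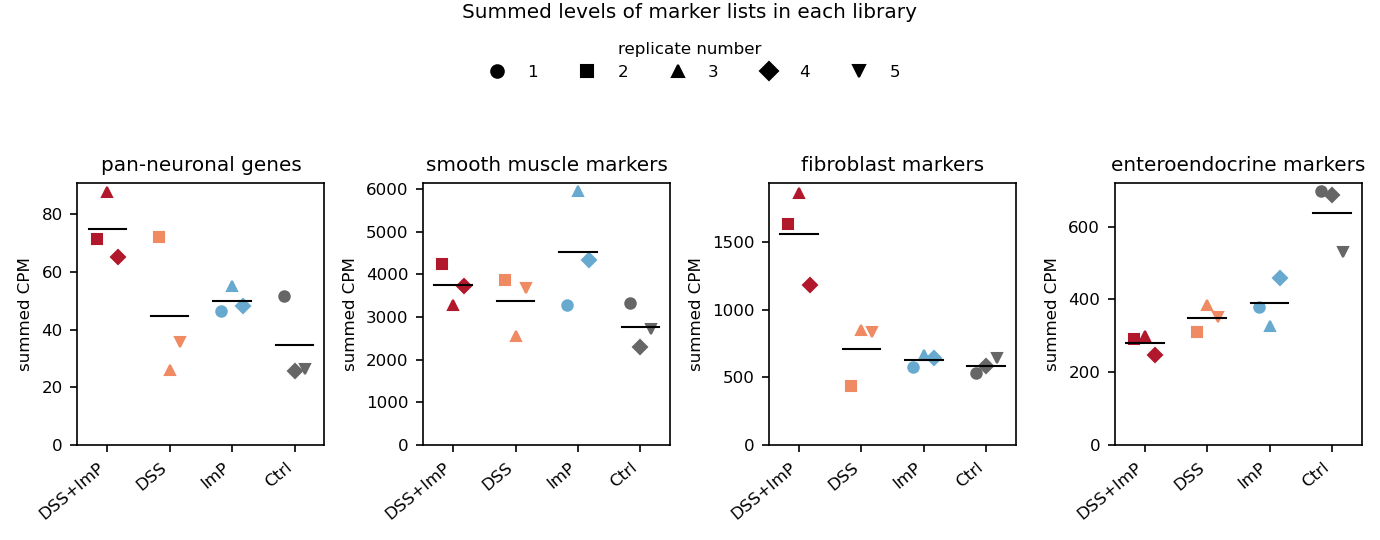
Summed CPM of 4 lists of genes in each library, with 1 point per library shaped by its replicate number, a line at the mean of each group of 3, and groups in the order DSS+ImP, DSS, ImP and Ctrl. Pan-neuronal genes spread widely within DSS (26.0 to 72.1 CPM) and fibroblast genes were highest in the 3 DSS+ImP libraries (1185 to 1864 CPM).

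Colon given DSS with ImP was compared with colon given DSS alone, the comparison that the series' own design text describes. Of the 30 tested members 3 were higher and 0 were lower at an FDR of 0.05 (edgeR quasi-likelihood test, Benjamini-Hochberg adjustment over all tested genes), where 8.03% of all genes passed, 3.99% as higher and 4.04% as lower. Vip, Gfap and Ednrb were the 3. The median log2 change was 0.74 over the members and 0.02 over all genes, and 29 of 30 members were above 0, against 51.8% of all genes. The median of the 7 epithelial markers was -0.345. In 11 members all DSS+ImP libraries were above all DSS libraries, a pattern seen in 14.2% of all genes. By role, 0 of 10 pan-neuronal, 0 of 3 synaptic vesicle, 1 of 8 transmitter, 1 of 6 fate and receptor and 1 of 3 glial genes passed. Without DSS 2, the library with liver RNA, 6 members passed (Vip, Gfap, Penk, Prph, Nos1 and Elavl4), the median was 1.23, Ednrb did not pass, and 3.29% of all genes did. With DSS 5 left out, Vip alone of 31 tested members passed, where 2.26% of all genes did.

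DSS+ImP colon was also compared with colon given ImP alone. Here 4 of 30 members were higher and 0 were lower, where 9.33% of all genes passed, 4.41% as higher and 4.92% as lower. Ednrb, Gfap, Vip and Ret were the 4. The median log2 change of the members was 0.49, against 0.00 for all genes and -0.413 for the 7 epithelial markers, and 28 of 30 were above 0. All DSS+ImP libraries were above all ImP libraries in 14 members, 5 of them pan-neuronal, which was the pattern of 14.3% of all genes. Both comparisons share the DSS+ImP libraries. With DSS+ImP 3, ImP 1 or ImP 4 left out, 2 members (Ednrb and Gfap) passed each time, and the share of all genes that passed was 4.33% without DSS+ImP 3, 6.02% without ImP 1 and 6.03% without ImP 4.

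DSS colon and Ctrl colon, the contrast of injury without ImP, gave 0 of 30 members past the test, where 2.80% of all genes passed. At an unadjusted p under 0.05 there were 2 members, Ret and Penk, against 15.3% of all genes, and DESeq2 called 1, Ret, which also passed in edgeR without ImP 1. The median log2 change was 0.31 over the members and -0.02 over all genes, but it moved with the libraries included. It was -0.09 without DSS 2, 0.72 without Ctrl 1, and 1.04 for DSS 2 alone against the 3 Ctrl libraries, which share its liver RNA. All DSS libraries lay above all Ctrl libraries in 3 members, Ret, Tac1 and Gfap, a pattern of 9.92% of all genes.

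ImP colon and Ctrl colon likewise gave 0 of 30 members past the test, where 1.99% of all genes passed. At an unadjusted p under 0.05 there were 5, Gfra2, Tac1, Gap43, Penk and Tubb3, against 15.2% of all genes, and DESeq2 called 1, Gfra2, which also passed in edgeR without ImP 1. The median was 0.52 over the members and -0.01 over all genes. It was 0.87 without Ctrl 1. With liver RNA as a term of the fit the median was 1.62, but only the DSS group holds libraries both with and without liver RNA. That term was thus set by DSS 2, high for most members, against the rest of its group. The value of 1.62 therefore carries the excess of DSS 2 and cannot be read as a change due to ImP. All ImP libraries lay above all Ctrl libraries in 4 members (Tubb3, Gap43, Penk and Gfap), against 9.64% of all genes, and below them in 1 (Ednrb), against 11.6%. No ImP library carries liver RNA and all Ctrl libraries do, so that no value of this comparison within a set can be had.

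**Figure D3:**
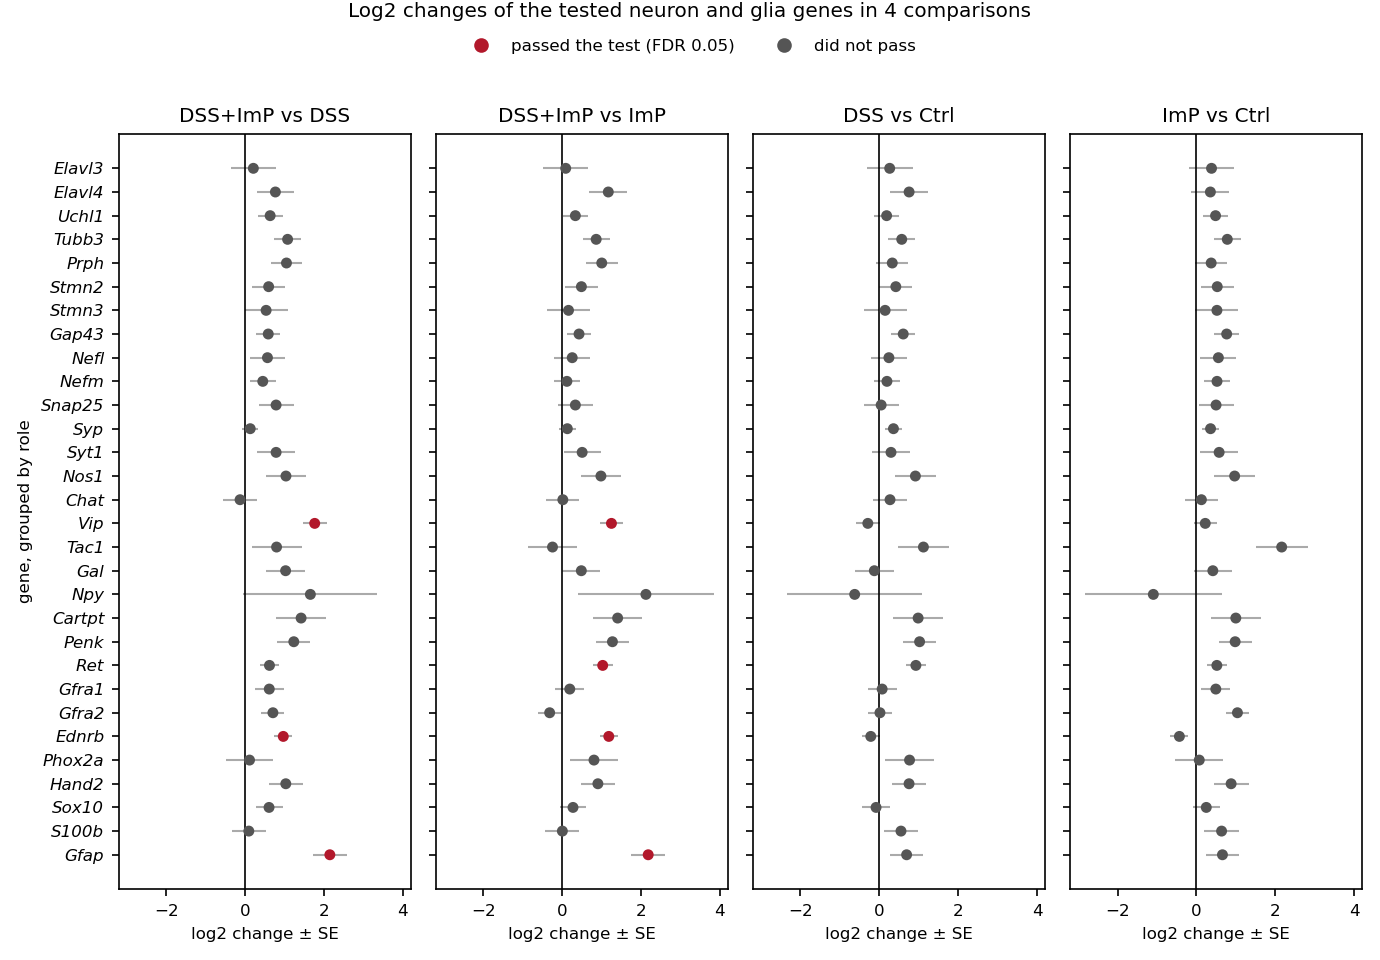
Log2 change with its standard error (line) of each tested gene, by role down the page, in DSS+ImP against DSS, DSS+ImP against ImP, DSS against Ctrl and ImP against Ctrl. Red points passed the test: Vip, Gfap and Ednrb in the first panel, and those with Ret in the second, while the last 2 panels hold none.

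Among the pan-neuronal genes, Uchl1, a ubiquitin hydrolase abundant in neurons, had the highest mean FPKM (fragments per kilobase, adjusted for library size) of its group, 4.84 over the 12 libraries. Its levels were 11.6, 13.7 and 10.4 CPM in DSS+ImP, 11.8, 5.27 and 5.99 CPM in DSS, 9.82, 9.77 and 8.73 CPM in ImP, and 9.90, 4.93 and 5.39 CPM in Ctrl. DSS 2 alone among the DSS libraries reached the DSS+ImP range. Tubb3, the neuronal tubulin, had 12.6, 13.9 and 10.2 CPM in DSS+ImP, 8.38, 3.34 and 5.72 CPM in DSS, 7.48, 6.91 and 5.84 CPM in ImP, and 5.57, 2.24 and 3.94 CPM in Ctrl. Its DSS+ImP libraries lay above those of every other group, with a log2 change of 1.08 ± 0.34 (SE) against DSS that did not pass (edgeR adjusted p = 0.0773). In 2 of 17 alternative settings, DESeq2 and limma on FPKM, Tubb3 did pass against DSS, with adjusted p-values of 0.0142 to 0.229 over the 17. Against ImP it did not pass either (0.86 ± 0.34, 0.15), but did with limma and when only those groups were fitted (0.0387 to 0.352 over 17 settings). Prph, a neuronal intermediate filament, showed the same arrangement at 13.0 to 19.9 CPM in DSS+ImP, 3.93 to 12.8 CPM in DSS, 6.997 to 9.39 CPM in ImP and 3.72 to 9.03 CPM in Ctrl. Against DSS its log2 change of 1.05 ± 0.40 (SE) did not pass (edgeR adjusted p = 0.134), but it did with DESeq2, with limma and without DSS 2 (0.0365 to 0.37 over 17 settings). Against ImP, Prph passed when only those groups were fitted and in none of the other 16 settings.

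Elavl4, an RNA-binding protein of neurons, had 5.39, 6.68 and 4.17 CPM in DSS+ImP and 6.35, 1.62 and 1.58 CPM in DSS. It had 2.64, 2.15 and 2.43 CPM in ImP and 2.62, 1.44 and 1.59 CPM in Ctrl. DSS 2 was about 4 times the other DSS libraries and lay among the DSS+ImP libraries. The growth cone protein Gap43, the stathmins Stmn2 and Stmn3, the neurofilaments Nefl and Nefm and the RNA-binding protein Elavl3 overlapped between DSS+ImP and DSS. Of these, Stmn2 was the most abundant by CPM, at 9.98 to 14.3 CPM in DSS+ImP, 4.59 to 13.7 CPM in DSS, 7.45 to 9.51 CPM in ImP and 3.39 to 9.60 CPM in Ctrl. Stmn3 and Elavl3 stayed at or under 3.46 CPM in all libraries.

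The synaptic vesicle genes differed among themselves. Snap25, part of the membrane fusion complex and the highest of the 3 by FPKM (1.12 on average), had 12.5, 13.2 and 9.24 CPM in DSS+ImP, 10.4, 2.34 and 7.57 CPM in DSS, 7.61, 10.8 and 9.28 CPM in ImP, and 9.85, 5.87 and 3.91 CPM in Ctrl. The calcium sensor Syt1 followed a like pattern, with 6.37 to 9.55 CPM in DSS+ImP and 1.95 to 8.79 CPM in DSS. Syp, the vesicle protein synaptophysin, varied less, at 6.99 to 7.68 CPM in DSS+ImP, 6.12 to 7.89 CPM in DSS, 5.34 to 7.67 CPM in ImP and 3.97 to 6.48 CPM in Ctrl. Synaptophysin is also made by enteroendocrine cells, whose 11 marker genes summed to 247 to 299 CPM in DSS+ImP, 311 to 385 CPM in DSS, 328 to 460 CPM in ImP and 531 to 697 CPM in Ctrl. Between groups that sum did not follow the pan-neuronal genes, since it was highest in Ctrl. Within groups it was highest in Ctrl 1 (697 CPM) and DSS+ImP 3 (299 CPM), as they were. It was lowest in DSS 2 (311 CPM) and ImP 3 (328 CPM), where they were highest. Single markers also differed, and the part of these cells in Syp was not tested. In DSS+ImP against DSS, 3 of the 11 had log2 changes above 0 and 8 below. Sst was highest in DSS 2, Ctrl 1 and DSS+ImP 3 within their groups, as most members were. In DSS against Ctrl 4 of the 11 (Chga, Chgb, Tph1 and Sct) were lower, against 1.59% of all genes. Of these, Chga alone passed with any 1 library left out. In ImP against Ctrl 4 of the 11 were lower as well, against 0.929% of all genes.

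Vip encodes vasoactive intestinal peptide, a transmitter of inhibitory motor neurons and secretomotor neurons. Its levels were 43.0, 73.6 and 26.2 CPM in DSS+ImP, 14.8, 12.4 and 14.8 CPM in DSS, 15.6, 24.0 and 20.5 CPM in ImP, and 17.7, 13.9 and 19.8 CPM in Ctrl. Every DSS+ImP library lay above every library of the other groups, and DSS 2, high for most members, was not high for Vip. Vip averaged 47.6 ± 24.1 CPM in DSS+ImP and 14.0 ± 1.38 CPM in DSS (SD, n = 3 each), a log2 change of 1.76 ± 0.31 (SE; edgeR adjusted p = 0.00737). That call held in 17 of 17 alternative settings, with log2 changes of 1.31 to 2.06. Against ImP, at 20.0 ± 4.24 CPM (SD, n = 3), the log2 change was 1.25 ± 0.30 (edgeR adjusted p = 0.0221). It was 0.79 without DSS+ImP 3 (adjusted p = 0.0916), and the call was also lost without ImP 1 (0.0874), without ImP 4 (0.0651) and when only those groups were fitted (0.0909).

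Penk, the enkephalin precursor of many excitatory neurons, was the highest member by FPKM, at 7.28 on average. It had 25.2, 32.7 and 19.4 CPM in DSS+ImP, 18.5, 4.78 and 9.63 CPM in DSS, 10.03, 11.3 and 10.6 CPM in ImP, and 8.26, 3.65 and 4.25 CPM in Ctrl. The DSS+ImP libraries were above all others, with DSS 2 just beneath them. The log2 change was 1.24 ± 0.42 (SE) against DSS and 1.27 ± 0.42 against ImP, and neither passed (edgeR adjusted p = 0.0931 and 0.0817). Penk passed against DSS in 3 of 17 alternative settings (DESeq2, limma and without DSS 2), with adjusted p-values of 0.0152 to 0.283 over the 17. Against ImP it passed in 5, which were DESeq2, limma, the fit of only those groups, and those without DSS 2 or DSS 3 (0.0108 to 0.253). Nos1, the neuronal nitric oxide synthase of inhibitory motor neurons, had 25.5, 31.1 and 21.3 CPM in DSS+ImP, 24.3, 5.17 and 8.61 CPM in DSS, 8.996, 15.0 and 15.5 CPM in ImP, and 11.04, 3.56 and 5.53 CPM in Ctrl. Here DSS 2 was within the DSS+ImP range, unlike for Vip, which many of the same neurons make. Nos1 FPKM per Vip FPKM was accordingly 0.501 in DSS 2, against 0.127 and 0.177 in the other DSS libraries and 0.129 to 0.248 in DSS+ImP.

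Tac1, the precursor of substance P, had its highest level outside DSS+ImP. It was 16.4, 56.5 and 24.2 CPM in DSS+ImP, 22.9, 14.1 and 18.9 CPM in DSS, 83.8, 20.3 and 11.1 CPM in ImP, and 12.2, 6.14 and 7.39 CPM in Ctrl. ImP 1 was about 4 times the next ImP library, and the DSS libraries lay above all Ctrl libraries. The log2 change of ImP against Ctrl, 2.16 ± 0.66 (SE), did not pass (edgeR adjusted p = 0.126), and without ImP 1 it was 0.87 ± 0.47 (0.472). Galanin (Gal) and the peptide precursor Cartpt were highest in DSS+ImP without passing the edgeR test, though limma on FPKM called Cartpt in both DSS+ImP comparisons. Gal stood at 5.03 to 6.73 CPM in DSS+ImP, 1.21 to 4.37 CPM in DSS, 3.44 to 4.88 CPM in ImP and 1.69 to 5.92 CPM in Ctrl. Chat, which makes acetylcholine, was low and overlapped between all groups. It had 0.835 to 1.06 CPM in DSS+ImP, 0.659 to 1.79 CPM in DSS, 0.748 to 1.19 CPM in ImP and 0.631 to 1.11 CPM in Ctrl. DSS 2 was its highest library. Npy stayed at 0 to 0.658 CPM in all libraries, too low to compare.

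Ednrb encodes the receptor for endothelin 3 that neural crest progenitors need to colonise the colon, and other cells of the gut wall also make it. Its levels were 21.5, 30.3 and 13.6 CPM in DSS+ImP, 10.7, 12.2 and 10.5 CPM in DSS, 8.75, 10.7 and 9.42 CPM in ImP, and 11.8, 14.4 and 12.7 CPM in Ctrl. DSS+ImP lay above DSS and ImP in every library and overlapped Ctrl, since DSS+ImP 4 was under Ctrl 4. Ednrb averaged 21.8 ± 8.33 CPM in DSS+ImP, 11.2 ± 0.915 CPM in DSS and 9.61 ± 0.969 CPM in ImP (SD, n = 3 each). The log2 change was 0.97 ± 0.23 (SE) against DSS (edgeR adjusted p = 0.0256) and 1.18 ± 0.23 against ImP (0.00766). The first was 0.66 without DSS+ImP 3 (adjusted p = 0.11), and it missed the threshold without DSS+ImP 2 (0.0688), DSS 2 (0.0806) or DSS 5 (0.0978) and when only those groups were fitted (0.0807). The second was lost when only those groups were fitted (0.0528). Of 6 fibroblast markers, 4 (Pdgfra, Col1a1, Col1a2 and Dcn) were also higher in DSS+ImP in both comparisons. Against DSS, all of these calls but that of Dcn were lost without DSS+ImP 2, DSS+ImP 3 or DSS 5. The 6 markers all had counts in every library and summed to 1630, 1864 and 1185 CPM in DSS+ImP, 439, 850 and 834 CPM in DSS, 574, 666 and 643 CPM in ImP, and 530, 582 and 647 CPM in Ctrl. Ednrb was at 1.15 to 1.63 CPM per 100 CPM of those markers in DSS+ImP, between 1.26 and 2.45 in DSS, between 1.47 and 1.60 in ImP and between 1.97 and 2.48 in Ctrl, ranges that overlap except that Ctrl was above DSS+ImP and ImP. Leukocyte markers summed to 196 to 352 CPM in DSS+ImP, 115 to 152 CPM in DSS, 119 to 209 CPM in ImP and 132 to 162 CPM in Ctrl. The part of these cell types in the result was not tested.

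Ret, the signalling receptor for the glial cell line-derived neurotrophic factor family, differed in pattern from Ednrb. It had 21.9, 22.5 and 21.5 CPM in DSS+ImP, 17.2, 12.6 and 13.2 CPM in DSS, 6.76, 13.5 and 12.04 CPM in ImP, and 9.53, 5.38 and 7.66 CPM in Ctrl. DSS+ImP lay above all other libraries and DSS above all Ctrl libraries, while ImP overlapped both DSS and Ctrl. Against ImP the log2 change was 1.03 ± 0.25 (SE; edgeR adjusted p = 0.0253), and that call was lost without DSS+ImP 2 (0.0642), DSS+ImP 3 (0.0789), ImP 1 (0.0671) or ImP 4 (0.0542) and when only those groups were fitted (0.0572). Against DSS it was 0.62 ± 0.25 (0.156), and DSS against Ctrl gave 0.93 ± 0.26 (0.079), neither of which passed. Limma on FPKM called the difference from DSS, where adjusted p-values were 0.0465 to 0.348 over 17 settings. Of the co-receptors of RET, Gfra2 had 3.71 to 4.66 CPM in DSS+ImP, 2.13 to 2.92 CPM in DSS, 2.97 to 6.66 CPM in ImP and 2.34 to 3.05 CPM in Ctrl. Gfra1 had 5.01 to 7.23 CPM in DSS+ImP, 1.84 to 6.08 CPM in DSS, 4.63 to 6.24 CPM in ImP and 2.83 to 4.99 CPM in Ctrl.

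Hand2, a transcription factor of enteric neurons that muscle and other mesenchymal cells also make, was the highest of the fate and receptor genes by FPKM, at 5.08 on average. Its levels were 18.6, 33.7 and 16.9 CPM in DSS+ImP, 18.9, 5.66 and 9.30 CPM in DSS, 10.1, 13.3 and 13.5 CPM in ImP, and 10.7, 4.65 and 4.71 CPM in Ctrl. DSS 2 lay inside the DSS+ImP range, and the log2 change of 1.03 ± 0.44 (SE) against DSS did not pass (edgeR adjusted p = 0.173). Phox2a, another neural fate factor, stayed at or under 1.12 CPM in all libraries. Erbb4, a neuregulin receptor, had at most 4 counts in any library and was not tested. It was at 0 in all 3 ImP libraries, which allows up to 0.0629 CPM over the group.

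Gfap encodes the glial fibrillary acidic protein, the intermediate filament that rises in reactive glia, and had the highest mean FPKM of the glial members, 1.08. Its levels were 5.55, 22.3 and 10.2 CPM in DSS+ImP, 3.52, 2.54 and 2.51 CPM in DSS, 2.55, 3.07 and 2.76 CPM in ImP, and 2.21, 1.94 and 1.14 CPM in Ctrl. Every DSS+ImP library lay above every other library, over a range of about 4 times within the group. Gfap averaged 12.7 ± 8.65 CPM in DSS+ImP, 2.86 ± 0.575 CPM in DSS and 2.79 ± 0.264 CPM in ImP (SD, n = 3 each). The log2 change was 2.15 ± 0.43 (SE) against DSS (edgeR adjusted p = 0.0127) and 2.18 ± 0.43 against ImP (0.0081). Without DSS+ImP 3 these were 1.46 (adjusted p = 0.0483) and 1.49 (0.0276). The call against DSS was lost without DSS 5 (0.0618) and when only those groups were fitted (0.0532).

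**Figure D4:**
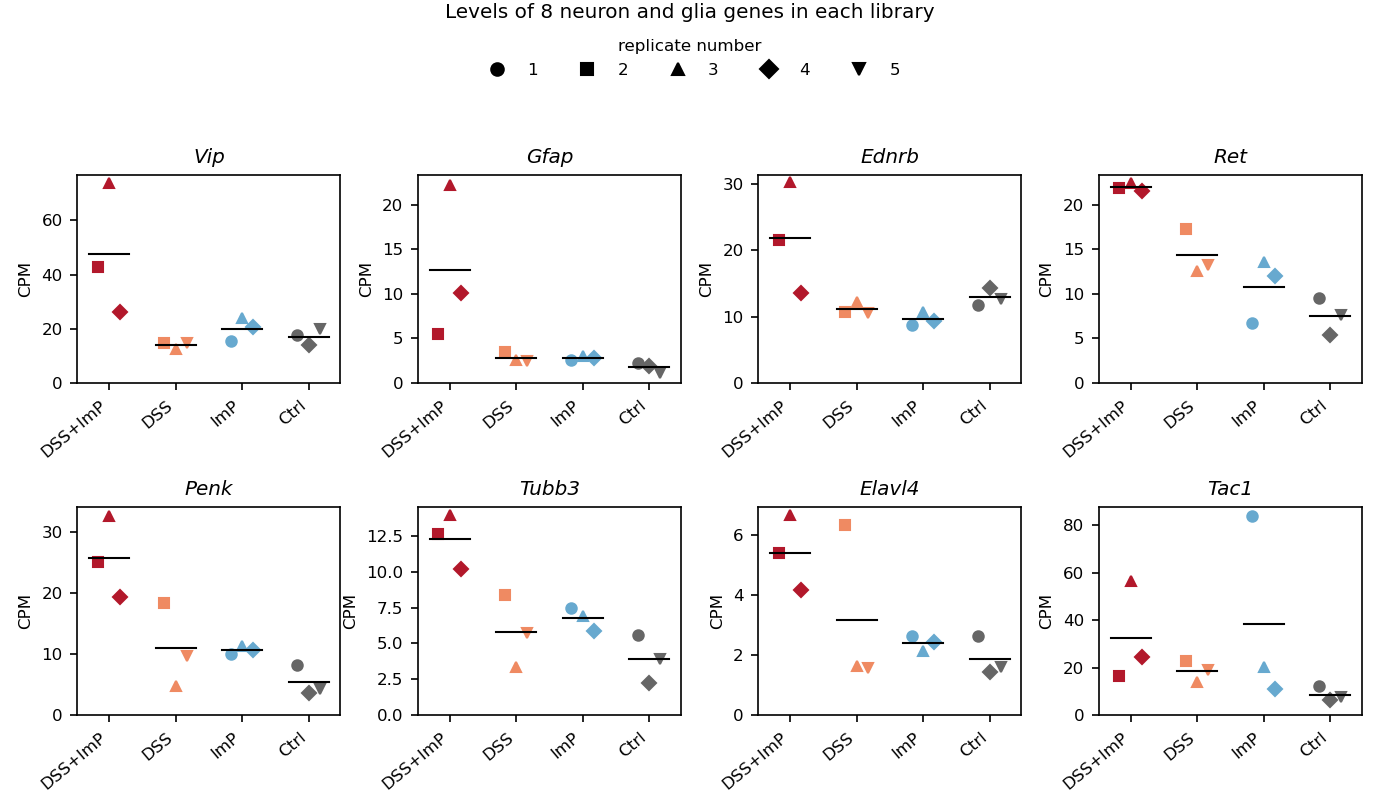
CPM of 8 genes in each library, with 1 point per library shaped by its replicate number, a line at the mean of each group of 3, and groups in the order DSS+ImP, DSS, ImP and Ctrl. Vip and Gfap lie above all other libraries in the 3 DSS+ImP libraries, and ImP 1 holds the highest Tac1 level, 83.8 CPM.

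The remaining glial genes moved less. Sox10, the transcription factor that marks all enteric glia, had 2.35, 3.49 and 2.38 CPM in DSS+ImP, 1.81, 1.75 and 1.84 CPM in DSS, 1.71, 2.93 and 2.16 CPM in ImP, and 3.00, 1.38 and 1.33 CPM in Ctrl. The calcium-binding protein S100b had 0.861 to 1.62 CPM in DSS+ImP, 0.921 to 1.27 CPM in DSS, 0.854 to 1.67 CPM in ImP and 0.473 to 1.16 CPM in Ctrl, which overlap throughout. Fabp7, a fatty acid-binding protein of glia, had at most 40 counts in a library and was not tested. Gfap FPKM per Sox10 FPKM was 1.71, 4.63 and 3.09 in DSS+ImP, 1.42, 1.06 and 1 in DSS, 1.08, 0.763 and 0.925 in ImP, and 0.536, 1.02 and 0.617 in Ctrl. Gfap FPKM per S100b FPKM was 2.06 to 4.89 in DSS+ImP, between 0.697 and 1.35 in DSS, between 0.645 and 1.09 in ImP and between 0.672 and 1.48 in Ctrl. By either ratio, all 3 DSS+ImP libraries stood above the other 9. Vip FPKM per summed pan-neuronal FPKM gave no such separation, at 0.403, 0.570 and 0.270 in DSS+ImP, 0.146, 0.325 and 0.275 in DSS, between 0.220 and 0.297 in ImP and between 0.232 and 0.516 in Ctrl. These ratios were chosen after the levels were seen and were not tested.

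**Figure D5:**
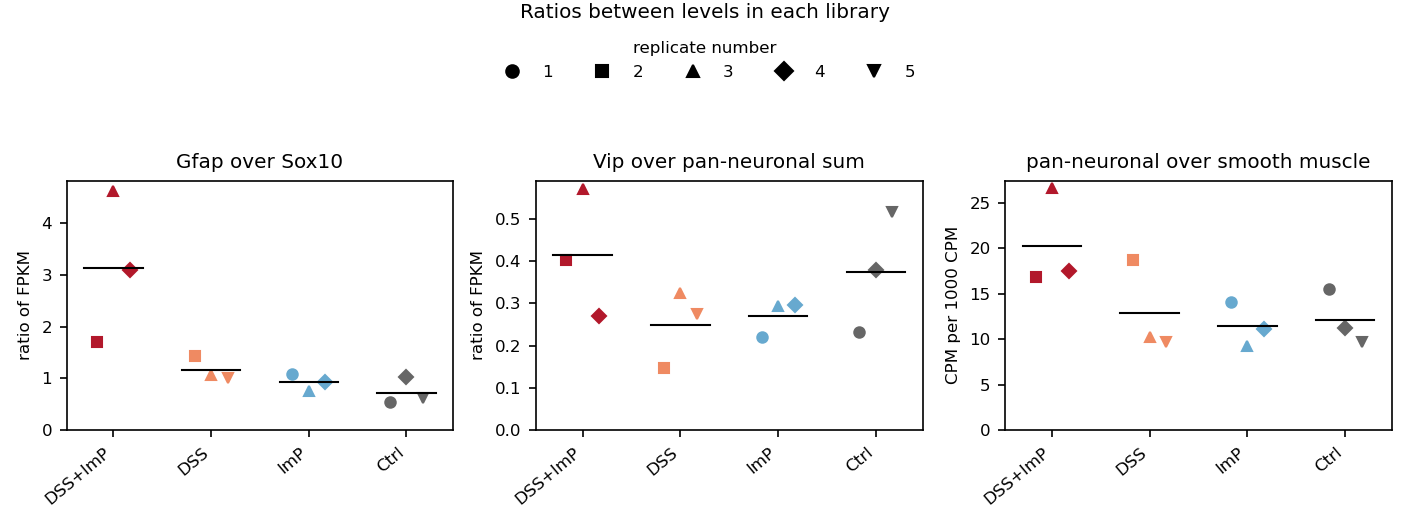
Ratios in each library, with 1 point per library shaped by its replicate number, a line at the mean of each group of 3, and groups in the order DSS+ImP, DSS, ImP and Ctrl. Gfap per Sox10 is above all other libraries in the 3 DSS+ImP libraries (1.71 to 4.63), whereas Vip per summed pan-neuronal FPKM overlaps between the groups.

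The interaction asked whether DSS changed a gene differently with ImP than without it. It gave 0 of 30 members and 0% of all genes past the edgeR test, while 3 members had an unadjusted p under 0.05, against 11.8% of all genes, and DESeq2 called 2 of them, Vip and Ednrb. The difference of log2 changes was 1.40 ± 0.32 (SE) for Ednrb (edgeR adjusted p = 0.107), 1.54 ± 0.42 for Vip (0.158) and 1.49 ± 0.59 for Gfap (0.339). Without DSS+ImP 4, the lowest DSS+ImP library for both, Ednrb and Vip passed the edgeR test as well, where 2.06% of all genes did. No member passed with any other single library left out.

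A further 77 genes of neurons, synapses, transmitters and their receptors, growth factors and glia, listed by function, placed the members in context, and 74 were tested. In DSS+ImP against DSS, 7 were higher and 4 lower, 14.9% of those tested, against 8.03% of all genes. In DSS+ImP against ImP, 6 were higher and 2 lower, 10.8% of those tested, against 9.33% of all genes. Their median log2 changes were 0.50 and 0.33. In each comparison of single agents with Ctrl, 1 passed (1.35%), against 2.80% of all genes for DSS and 1.99% for ImP. Among glial genes, Gpm6b, a membrane proteolipid, had 23.3, 50.4 and 16.8 CPM in DSS+ImP, 8.21, 6.82 and 7.22 CPM in DSS and 5.32, 7.05 and 7.75 CPM in ImP, with log2 changes of 2.02 ± 0.33 (SE) and 2.17 ± 0.33 (edgeR adjusted p = 0.00643 and 0.00233). Its spread within DSS+ImP had the same order as that of Vip and Ednrb, with DSS+ImP 3 highest and DSS+ImP 4 lowest. The sums of pan-neuronal, fibroblast and leukocyte genes had that order too, and epithelial markers the reverse. Gfap was instead lowest in DSS+ImP 2. The sodium channel gene Scn7a passed in both comparisons, at 22.7 ± 6.72 CPM in DSS+ImP, 12.8 ± 0.908 CPM in DSS and 12.5 ± 0.863 CPM in ImP (SD, n = 3 each). Mbp, myelin basic protein, was lower in both, at 47.8 ± 8.08 CPM in DSS+ImP, 65.9 ± 1.64 CPM in DSS and 64.2 ± 3.02 CPM in ImP (SD, n = 3 each). Those levels were far above that of Sox10, at most 3.49 CPM in any library. Mbp was listed with glial genes, but which cells made its RNA was not tested. With any 1 library left out, Gpm6b kept both calls. Scn7a was lost in both comparisons without DSS+ImP 3, and against DSS also without DSS+ImP 2, DSS 2, DSS 3 or DSS 5, and against ImP without ImP 1 or ImP 4. Mbp was lost in both without DSS+ImP 2, DSS+ImP 3 or DSS 5, and against DSS also without DSS 2 or DSS 3, and against ImP without any ImP library.

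Among ligands and receptors, Nrg1, which encodes neuregulin 1, had 47.0, 110.1 and 37.2 CPM in DSS+ImP, 12.6, 17.6 and 9.09 CPM in DSS, 6.85, 10.8 and 9.403 CPM in ImP, and 4.35, 5.07 and 7.37 CPM in Ctrl. It was higher in DSS+ImP than in DSS by 2.31 ± 0.39 on the log2 scale (SE; edgeR adjusted p = 0.00717) and than in ImP by 2.84 ± 0.40 (0.00142). Its receptor Erbb3, which epithelium also makes, was lower in both, at 182 ± 41.2 CPM in DSS+ImP, 345.0 ± 69.96 CPM in DSS and 329 ± 39.0 CPM in ImP (SD, n = 3 each). Tacr1, the receptor for substance P, had 12.5, 22.7 and 11.96 CPM in DSS+ImP, 8.68, 5.01 and 4.64 CPM in DSS, 2.71, 3.82 and 4.02 CPM in ImP, and 1.45, 1.18 and 1.71 CPM in Ctrl. It passed in DSS+ImP against DSS (log2 change 1.36 ± 0.31, edgeR adjusted p = 0.0221), against ImP (2.16 ± 0.32, 0.00185) and in DSS against Ctrl (2.08 ± 0.32, 0.00596). The nicotinic receptor subunit Chrnb4 ran the other way, at 8.17 ± 0.879 CPM in DSS+ImP and 14.2 ± 2.02 CPM in DSS, and at 10.7 ± 1 CPM in ImP and 17.1 ± 1.41 CPM in Ctrl (SD, n = 3 each). It was lower by the test in DSS+ImP against DSS and in ImP against Ctrl. The microtubule protein Map1b passed as higher in both DSS+ImP comparisons. In DSS+ImP against DSS alone, Dbh, which makes noradrenaline, was higher and Ece1, which activates endothelins, was lower. With any 1 library left out, Nrg1 kept both calls, Tacr1 kept those against ImP and of DSS against Ctrl, and Chrnb4 kept that of DSS+ImP against DSS. Tacr1 against DSS was lost without DSS+ImP 3, DSS 3 or DSS 5. Erbb3 was lost in both comparisons without DSS+ImP 2 or DSS+ImP 3, and against DSS also without DSS 5 and against ImP without ImP 1. Chrnb4 in ImP against Ctrl was lost without any ImP or Ctrl library, DSS+ImP 2 or DSS 5. Map1b in both comparisons, and Dbh and Ece1 in 1, were lost without DSS+ImP 2, DSS+ImP 3 or several of the other libraries.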

How the data were processed

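Whole colon RNA was sequenced in 12 libraries, 3 in each of 4 groups, which were taken from the labels. Per the labels' protocols, total RNA was extracted with Trizol, captured with oligo(dT) and made into libraries whose strand was marked with dUTP. The submitters' processing notes list HISAT2 2.0.4, StringTie 1.3.4d and cutadapt 1.9 as tools and GRCm38 as the build. Because gene positions in the table differ from that build, no position was taken from it. The authors deposited estimated counts as whole numbers, not scaled for library size, and the FPKM values beside them are fragments per kilobase scaled to the library. Use of the strand in counting is not stated there. Counts of 4 were in excess (12215 values, against 7060 of 3 and 4182 of 5), so 1 read pair was taken as about 4 counts. A group at 0 was given a limit of 12 counts over its libraries, for counting error only.

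Counts were filtered with filterByExpr by group, normalised by TMM (factors 0.921 to 1.12) and tested, two-sided, by edgeR 4.0.16 in R 4.3.3 with its quasi-likelihood fit over all 12 libraries, 1 coefficient per group, at an FDR of 0.05 over all tested genes. The common biological coefficient of variation was 0.312, and Spearman correlations between replicates were 0.975 to 0.983. Standard errors of log2 changes are the absolute change over the square root of F. Alternatives were DESeq2 1.42.0, no filter, limma 3.58.1 on log2(FPKM + 1) for genes with at least 1 FPKM in 3 libraries, a replicate block, only the groups compared, liver RNA as a term (a summed level of at least 50 CPM) and each library left out. The test was checked on simulated data.

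The members and lists were chosen with earlier results of these data known. Members were given by library where they passed a test or had the highest mean FPKM of their role; Tubb3, Elavl4, Nos1, Tac1 and Sox10 were added after their values were seen. From each further list of neuron and glia genes, up to 4 genes with the smallest p among those past the threshold were named. In the lists of cell type markers, such genes were named for some lists and comparisons only. Of 3 markers of interstitial cells of Cajal (Kit, Ano1 and Etv1), 2 were lower in DSS+ImP than in ImP, against 4.92% of all genes. In ImP against Ctrl 1 of them was higher, against 1.06% of all genes. Of 175 genes in 20 lists, 1 had no row and 1 had several rows, of which the one with the most counts was used. Promoters were taken from RefSeq. Results that rest on 2 of the listed genes are not reported here.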

Additional observations from a re-analysis of the deposited data

Results flagged for a closer look

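In 3 genes, libraries lay on opposite sides of their reference means in the comparisons given below. In all 3, DSS libraries overlapped Ctrl libraries. For Vip, every DSS+ImP library was above the ImP mean, while every DSS library was below the Ctrl mean. The difference of the DSS changes with and without ImP was 1.54 ± 0.42 on the log2 scale (SE; edgeR adjusted p = 0.158). For Ednrb the same held, and every DSS+ImP library was also above the DSS mean while every ImP library was below the Ctrl mean. Its difference was 1.40 ± 0.32 in either arrangement (edgeR adjusted p = 0.107). For Sox10, with every DSS+ImP library above the ImP mean and every DSS library below the Ctrl mean, it was 0.36 ± 0.49 (edgeR adjusted p = 0.852). That arrangement rested on Ctrl 1, at 3.00 CPM. All DSS libraries (1.75 to 1.84 CPM) were above Ctrl 4 and Ctrl 5 (1.38 and 1.33 CPM), and DSS+ImP overlapped ImP. None of the 3 genes passed the edgeR test of the difference at an FDR of 0.05. DESeq2 called Vip and Ednrb.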

How the results depend on the processing

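Across the alternatives the log2 change took both signs in 5 of 30 tested members in DSS+ImP against DSS, 7 in DSS+ImP against ImP, 17 in DSS against Ctrl, 3 in ImP against Ctrl and 20 in the interaction. Those in DSS+ImP against DSS were Elavl3, Chat, Npy, Phox2a and S100b, and none of the members with a call changed sign in the DSS+ImP comparisons. Of log2 changes of members with an unadjusted p under 0.05 and of up to 4 genes with a call from each further list, 1132 of 1548 recomputed values stayed on their side of the threshold, 387 kept their direction and lost the call, and 29 gained one. The cause of these shifts was not tested. Fits with a library left out also rested on fewer libraries, and that part was not separated from the effect of the library itself.

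DESeq2 called 6 of 32 members in DSS+ImP against DSS (Vip, Gfap, Ednrb, Tubb3, Prph and Penk), where 3125 genes or 9.13% of all passed, and 5 in DSS+ImP against ImP (Vip, Gfap, Ednrb, Ret and Penk), where 9.08% did. It called 1 in DSS against Ctrl, 1 in ImP against Ctrl and 2 in the interaction, and in these 1484, 1277 and 688 genes in all, or 4.34%, 3.73% and 2.01%. Limma on FPKM tested 21 members. It called 8 in DSS+ImP against DSS (Vip, Gfap, Ednrb, Ret, Tubb3, Prph, Penk and Cartpt), where 13.6% of 14248 genes passed, 7 in DSS+ImP against ImP (the same without Prph), where 16.9% did, and 72 genes in the interaction. With no filter, 231 genes passed in ImP against Ctrl. Fitting only the groups compared left 1 member (Vip) in DSS+ImP against DSS, where 721 genes or 3.46% passed. In DSS+ImP against ImP that fit called 5 of 29 members (Elavl4, Tubb3, Prph, Penk and Gfap) and 1153 genes or 5.53%, so that of the 4 members called over all 12 libraries it kept Gfap alone. With liver RNA as a term, 52 genes passed in DSS against Ctrl and 1 in ImP against Ctrl, and DSS 2 alone against Ctrl gave 282.

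The replicate numbers were not treated as pairs in the main test, and correlations over so few libraries cannot settle whether they pair them. Over 9 pairs with the same number, deviations from the group means correlated at -0.25 to 0.18, 2 of them over 0.1, and 2 of 12 libraries correlated best with their own number. With the replicate number as a block, 1 member passed in DSS+ImP against DSS (Vip) and 0 in DSS+ImP against ImP, so that the calls of Gfap and Ednrb against DSS and of Vip, Gfap, Ednrb and Ret against ImP were not made. The block left 351 genes in DSS+ImP against DSS, 688 in DSS+ImP against ImP, 10 in DSS against Ctrl, 0 in ImP against Ctrl and 2 in the interaction.

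With each library left out in turn, 1 to 6 members passed in DSS+ImP against DSS, 2 to 6 in DSS+ImP against ImP, 0 to 1 in DSS against Ctrl, 0 to 1 in ImP against Ctrl and 0 to 2 in the interaction. Among all genes 491 to 2616, 997 to 2490, 268 to 779, 49 to 527 and 0 to 476 passed in that order. Each such fit pooled the spread over the 4 groups. Members at the lowest counts, Npy, Fabp7 and Erbb4, cannot be compared at this depth.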
